A study of Homo sapiens with 4 samples.

Results

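The tripartite motif (TRIM) genes were followed in RD and JR1 cells with and without an shRNA against SKP2. Members were the genes whose symbol is TRIM followed only by digits, without TRIM63, and whose TPM averaged 1 or more across the 4 libraries, where TPM is a transcript's share of the RNA of a library, corrected for length and scaled to a total of 1000000. Of 65 such symbols among 39323 gene rows, 41 passed the limit on the mean and are called members below, against 12985 genes of any kind that passed it. A list of 10 interferon-induced TRIM genes split the members into 8 interferon-induced and 33 other members. It was written from general knowledge, with earlier results of these data known. The other 24 symbols stayed under the limit, 11 of them at 0 TPM in every library.

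RD and JR1 are established lines of fusion-negative rhabdomyosarcoma, a tumour of the skeletal muscle lineage, and both carry mutated p53. The controls of each line carried a lentiviral pLKO.1-puro vector with a non-targeting shRNA (shSCR), and the depleted cells the same vector with the SKP2 hairpin shSKP2.2, each selected with puromycin, so all groups had been infected and none was an uninfected control. There was 1 library per line and condition and 1 hairpin against SKP2, so a difference within a line has no replicate check and is given without a p-value. The lines served as the only replicates in 1 test over both, described below. The study asked what SKP2, the substrate receptor of an SCF ubiquitin ligase, does for the growth and the myogenic differentiation of these cells.

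TRIM proteins share an N-terminal run of a RING domain, which recruits the ubiquitin-charged E2 enzyme, 1 or more B-box domains and a coiled coil through which they form dimers. Their C-terminal domain differs and sets the target: PRY-SPRY domains in many antiviral members, PHD and bromodomains in the chromatin coregulators, COS domains in members that bind microtubules. Many TRIM genes are induced by interferon in most cell types, while the muscle RING-finger (MuRF) members belong to the sarcomere and its turnover. The name ubiquitin ligase does not cover every member, since TRIM14, TRIM16, TRIM44 and TRIM66 are known to lack the RING.

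SKP2 itself was at 92.8 TPM in the RD control and 7.40 TPM after depletion, and at 46.5 and 2.72 TPM in JR1, a log2 change of -3.48 and -3.67. Changes throughout compare the depleted library with the control of its own line, as log2 of the ratio of their TPM + 1, and they understate the change of genes near or under 1 TPM. A gene is said to have risen or fallen only where this change was at least 1, a doubling or a halving of TPM + 1. Short structural RNA genes, such as signal recognition particle RNA, took 50.1% and 57.1% of all TPM in the shSCR libraries of RD and JR1 and 62.3% and 64.9% in their shSKP2.2 libraries. Because TPM sum to the same total, the tested genes as a whole were shifted as deposited, with medians of -0.27 (RD) and -0.21 (JR1). It was 0.08 and 0.03 after these genes had been removed and the TPM rescaled. TPM keep no read counts, so depth and counting error are unknown. Of 10 muscle markers, 8 were at 1 TPM or more in every library and MYF5 was at 0 in every library, with sums of 729 and 1166 TPM in RD and 1111 and 2555 TPM in JR1 (shSCR, then shSKP2.2). Markers of leukocytes (5), endothelium (4) and epithelium (4) were all under 1 TPM in every library.

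The promoters of the interferon-induced members are shown first, since the letters of the interferon-stimulated response element stood in most of them. This element was searched as GAAANNGAAA on both strands (TTTCNNTTTC on the other), overlaps included, in windows of 300 bases, 250 before to 50 after the RefSeq start of GRCh38.p14. It was found in 5 of the 8 interferon-induced members and in 3 of the 24 other members that had a promoter (TRIM2, TRIM16 and TRIM44). Counted by gene in the same way, it was in 3.78% of the tested genes with a promoter. Counted by promoter, it was in 3.57% of all 35116 promoters. The stretches run 5′ to 3′ on the strand of the gene, with the matched letters in capitals. They are TRIM5, a retroviral capsid-binding restriction factor, chr11:5685082-5685111, minus strand, from position -37 to -8 counted from the start. TRIM14, an adaptor of mitochondrial antiviral signalling, is at chr9:98119223-98119312, minus strand, in the 90 bases before the start. TRIM26, a regulator of innate immune signalling, is at chr6:30213548-30213637, minus strand, from position -231 to -142 and with 2 overlapping matches. TRIM34, a close relative of TRIM5, is at chr11:5624871-5624960, plus strand, from position -130 to -41. TRIM21, the cytosolic antibody receptor, is at chr11:4393663-4393692, minus strand, from position 11 to 40 after the start and with 2 overlapping matches.
TRIM5: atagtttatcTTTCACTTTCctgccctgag
TRIM14: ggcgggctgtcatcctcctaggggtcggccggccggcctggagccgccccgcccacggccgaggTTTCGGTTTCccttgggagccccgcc
TRIM26: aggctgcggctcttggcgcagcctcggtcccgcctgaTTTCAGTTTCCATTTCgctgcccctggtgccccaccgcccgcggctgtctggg
TRIM34: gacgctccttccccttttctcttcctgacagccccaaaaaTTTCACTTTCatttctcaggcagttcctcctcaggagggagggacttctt
TRIM21: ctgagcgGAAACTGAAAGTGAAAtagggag
TRIM5 and TRIM34 carried the same 10 letters, on opposite strands of chromosome 11. The later match of TRIM21, also on chromosome 11, gives these letters when read on the other strand. A match is a description of these letters and not of binding. Across all tested genes with a promoter, the 381 with the element stood at a median of -0.30 in both lines, and those without it at -0.28 (RD) and -0.21 (JR1).

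Few TRIM members passed the fold limit in either line. In RD, 1 of 41 members fell (TRIM47), where 7.37% of all tested genes did, and 2 rose (TRIM54 and TRIM36), where 1.08% did. In JR1, 3 of 41 fell (TRIM47, TRIM5 and TRIM65), beside 9.05% of all tested genes, and 1 rose (TRIM54), beside 1.78%. The remaining 38 members in RD and 37 in JR1 changed by less than 1. After removal of the short structural RNA genes no member fell in RD, against 3.5% of all tested genes, and 2 rose, against 3.19%. In JR1, 2 members then fell (TRIM5 and TRIM47), against 6.81%, and 1 rose, against 4.31%.

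The 41 members had medians of -0.33 (RD) and -0.30 (JR1), beside the -0.27 and -0.21 of all tested genes. Of the members, 61.0% were lower in both lines as deposited, which is close to the 61.1% of all tested genes. Across every scaling tried (as deposited, centred on the median of all genes, rescaled, or with 0.1 TPM added), 14 of 41 members (34.1%) were lower in both lines, beside 32.4% of the 12861 tested genes that are not short structural RNA. Only 4 (9.76%) were higher in both lines under every scaling, TRIM54, TRIM36, TRIM55 and TRIM72, beside 17.0% of those genes.

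A test over both lines was added after the values had been seen, with limma on log2 of TPM + 1, line as a block and 1 residual degree of freedom, which takes 2 lines with the same hairpin as replicates. At a Benjamini-Hochberg adjusted p under 0.05 over all tested genes, 11 of 41 members were lower over both lines, a share close to the 26.6% of all tested genes, and 3 (TRIM54, TRIM36 and TRIM55) were higher, where 3.84% were. The lower members were 4 of the 8 interferon-induced (TRIM5, TRIM25, TRIM26 and TRIM56) and 7 of the 33 other members (TRIM8, TRIM23, TRIM27, TRIM37, TRIM47, TRIM59 and TRIM65). After removal of the short structural RNA genes, 5 were lower (TRIM5, TRIM47, TRIM56, TRIM59 and TRIM65), beside 12.4% of all tested genes, and 5 were higher (TRIM54, TRIM36, TRIM55, TRIM72 and TRIM24), beside 13.2%. Without the block, no member passed by limma, where 0.0385% of all tested genes were lower and 0.0154% higher. At an unadjusted p under 0.05 in that fit, 5 members were lower and 1 was higher, beside 1829 and 231 of the 12985 tested genes. The mean change of TRIM54 over both lines was 1.67 with a standard error of 0.18 (limma, adjusted p = 0.00252), and that of TRIM47 was -1.15 with a standard error of 0.14 (limma, adjusted p = 0.00316). TRIM54 passed the limit on the mean only through its depleted libraries, so its selection and its p-value draw on the same rise.

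**Figure D1:**
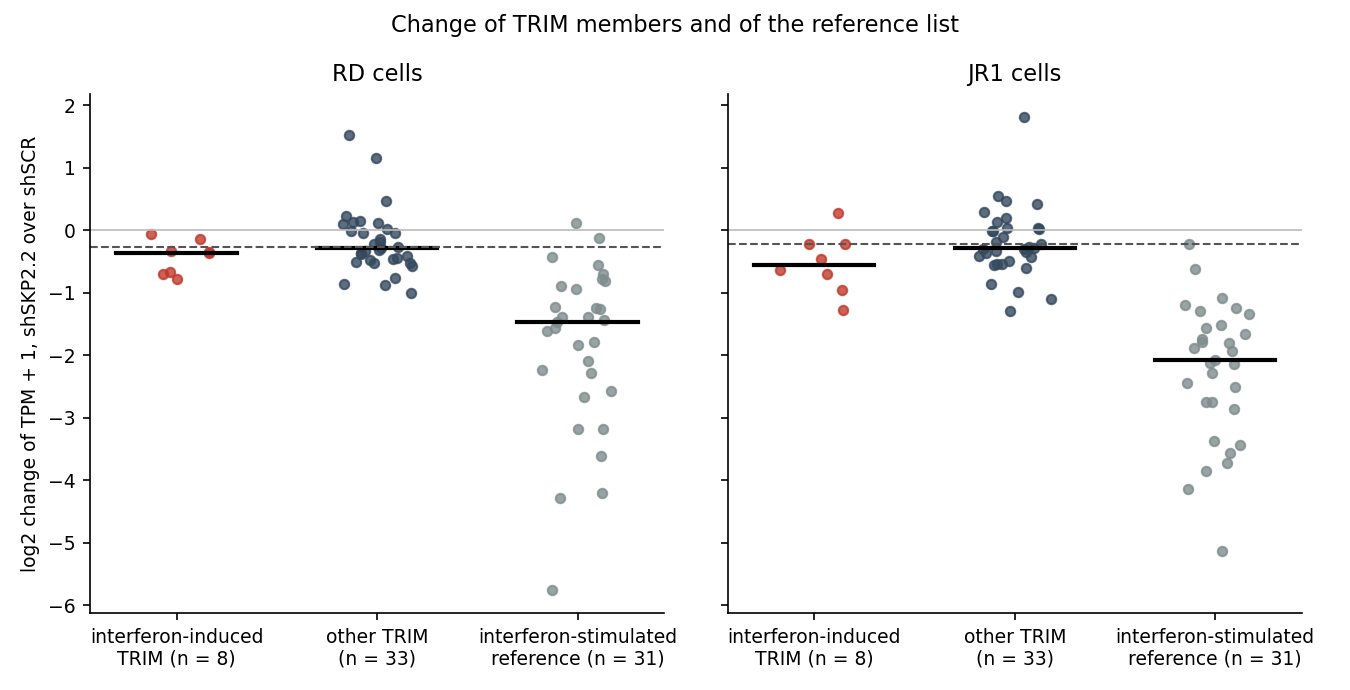
Log2 change of TPM + 1, shSKP2.2 over shSCR, for each gene of 3 lists in RD (left) and JR1 (right). Each point is 1 gene, the horizontal position within a list is random, black bars are list medians and the dashed line is the median of all tested genes (-0.27 in RD, -0.21 in JR1). The interferon-induced TRIM points lie near the other TRIM points, with medians of -0.36 and -0.55, while the interferon-stimulated reference genes reach down to -5.75 in RD and -5.14 in JR1.

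The medians of the interferon-induced members were -0.36 (RD) and -0.55 (JR1), against -0.28 in both lines for the other members. Of the 8, 7 (87.5%) were lower in both lines as deposited and 6 (75.0%) were below the median of all genes in both, against 18 (54.5%) and 13 (39.4%) of the 33 other members. Over all tested genes these shares were 61.1% and 37.9%. Under every scaling, 4 of the 8 (TRIM5, TRIM26, TRIM34 and TRIM56) were lower in both lines, against 10 of the 33 other members. Among the 12861 tested genes that are not short structural RNA, 32.4% were. TRIM34 passed the limit on the mean only through its controls, so its selection draws on the same difference. None of the 8 rose, where 1.08% (RD) and 1.78% (JR1) of all tested genes did. None fell in RD, beside 7.37% of all tested genes, and 1 fell in JR1, beside 9.05%.

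Of the 8 tested interferon-induced members, TRIM5 changed most. It was at 13.1 TPM in RD shSCR and 7.21 TPM in RD shSKP2.2, and at 10.8 TPM in JR1 shSCR and 3.86 TPM in JR1 shSKP2.2. Both shSKP2.2 libraries were below both shSCR libraries. Its changes were -0.78 (RD) and -1.28 (JR1), and -0.44 and -1.13 after rescaling, so the fall in JR1 stood under both.

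TRIM26 was the most abundant of the list in the RD control, at 60.2 TPM, and at 36.6 TPM in RD shSKP2.2. In JR1 it was at 20.7 TPM in shSCR and 12.3 TPM in shSKP2.2. The depleted RD library still stood above the JR1 control. Its change was -0.70 in both lines, and -0.31 and -0.45 after rescaling.

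TRIM56, an antiviral ligase, was at 14.0 TPM in RD shSCR and 8.44 TPM in RD shSKP2.2, and at 26.7 TPM in JR1 shSCR and 13.2 TPM in JR1 shSKP2.2. It changed by -0.67 in RD and -0.96 in JR1. TRIM25, a ligase of RIG-I signalling, was at 28.1 and 21.6 TPM in RD and at 31.9 and 20.05 TPM in JR1, again with both shSKP2.2 libraries below both controls. Its change of -0.36 in RD turned to 0.03 after rescaling, while in JR1 it was -0.64 and -0.37.

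TRIM21 differed little in RD, with 12.0 TPM in shSCR and 11.5 TPM in shSKP2.2, and was at 13.3 and 9.43 TPM in JR1. In RD it changed by -0.06, where rescaling gave 0.33, and in JR1 by -0.45. TRIM14 was at 6.09 and 4.54 TPM in RD and at 11.6 and 9.77 TPM in JR1, a change of -0.36 and -0.23 that became -0.02 and 0.04 after rescaling. For both of these members the direction in 1 line therefore depended on the scaling.

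TRIM38, a brake on innate signalling, was the only one of the 8 that was higher in a depleted library. It was at 10.6 TPM in RD shSCR and 9.50 TPM in RD shSKP2.2, and at 6.89 TPM in JR1 shSCR and 8.55 TPM in JR1 shSKP2.2. The change was -0.14 in RD, or 0.24 rescaled, and 0.28 in JR1. TRIM34 was near the limit on the mean, with 1.38 and 0.88 TPM in RD and 1.41 and 1.06 TPM in JR1, and changed by -0.34 and -0.23. The read-through row TRIM6-TRIM34 was at 0 in every library.

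**Figure D2:**
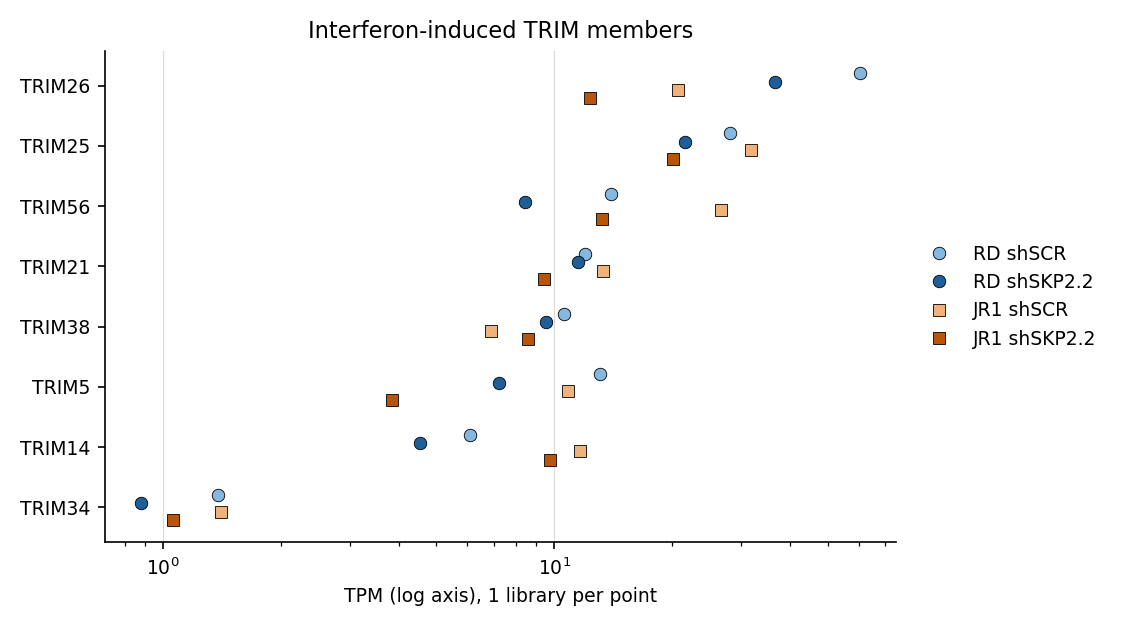
TPM on a log axis of the 8 interferon-induced TRIM members, 1 point per library (circles RD, squares JR1; pale shSCR, dark shSKP2.2). The dark point lies left of the pale point of its line for all members except TRIM38 in JR1, where it lies right (6.89 to 8.55 TPM), and for TRIM21 in RD the points almost coincide (12.0 and 11.5 TPM).

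A reference list of other interferon-stimulated genes, of which 31 were tested, moved further than the TRIM members. Of these, 22 fell in RD and 29 in JR1, beside 7.37% and 9.05% of all tested genes. None rose, beside 1.08% and 1.78%, and their median change was -1.46 and -2.08. After removal of the short structural RNA genes 19 fell in RD and 27 in JR1, beside 3.5% and 6.81%. The range ran from OASL, a sensor-linked antiviral protein, at -5.75 and -5.14, to SP110, a nuclear body protein, at 0.11 and -0.22. TRIM5, the lowest interferon-induced member, was thus above the median of that list in both lines. This list was written with earlier results of these data known, so its direction is not independent evidence.

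The enzymes that TRIM ligases work with and a TRIM protein under another symbol were looked up beside them. These enzymes were listed from general knowledge, with earlier results of these data known. UBE2L6, an E2 enzyme of the ubiquitin-like modifier ISG15, was at 83.1 and 49.99 TPM in RD and at 127.7 and 59.6 TPM in JR1, a change of -0.72 and -1.09, the lowest of 12 E2 enzymes in both lines. The median of the 12 was -0.20 in RD and 0.19 in JR1, and both were positive after rescaling (0.20 and 0.48), with UBE2D1 highest in RD (0.53) and UBE2E3 highest in JR1 (0.89). PML, that TRIM protein and the scaffold of nuclear bodies, was at 19.2 and 14.6 TPM in RD and at 22.5 and 15.7 TPM in JR1, a change of -0.37 and -0.49, of which that in RD became 0.012 after rescaling.

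Of the 4 muscle-linked members, 1 (TRIM54) rose in both lines and 3 did not reach the fold limit. TRIM54 (MuRF3), which binds microtubules and the sarcomere, was at 0.41 TPM in RD shSCR and 3.06 TPM in RD shSKP2.2, and at 1.42 TPM in JR1 shSCR and 7.49 TPM in JR1 shSKP2.2. Both depleted libraries were above both controls. TRIM54 rose by 1.53 in RD and 1.81 in JR1, the largest rise of the family in both lines, and by 2.32 and 2.37 after rescaling. It was under 1 TPM in the RD control, so its fold there rests on a low value of unknown count. The controls alone would average under 1 TPM, so TRIM54 is a member only through its depleted libraries.

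A stretch of the TRIM54 promoter is shown for the E-box CAGCTG, a sequence bound by MYOD and related factors, which was looked for after the values had been seen. It lies at chr2:27282275-27282364, plus strand, from position -154 to -65 of the RefSeq start of GRCh38.p14, with the E-box in capitals.
TRIM54: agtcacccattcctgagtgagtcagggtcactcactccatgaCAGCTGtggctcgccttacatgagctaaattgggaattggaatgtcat
The same 6 letters, which read alike on both strands, stood in 15 of the 32 members with a promoter. Counted by gene in the same way, they stood in 22.8% of the tested genes with a promoter. Counted by promoter, the share was 17.9% of all promoters. They stood in 14 of the 24 other members with a promoter and in 1 of the 8 interferon-induced members (TRIM56). Besides TRIM54, the E-box promoters included TRIM36 and TRIM72, higher in both lines under every scaling. They also included TRIM23, TRIM37, TRIM39, TRIM56 and TRIM65, lower in both lines under every scaling. Tested genes with the E-box had medians of -0.28 in RD and -0.22 in JR1, and those without it -0.28 and -0.21.

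TRIM55 (MuRF2), a partner of TRIM54 at the sarcomere, was at 18.1 and 25.5 TPM in RD and at 27.02 and 36.5 TPM in JR1. It was higher in the depleted library of each line, by 0.47 and 0.42, which is under the fold limit. TRIM72, also called MG53 and known for the repair of the muscle membrane, was at 22.1 and 26.0 TPM in RD and at 25.3 and 31.4 TPM in JR1, a difference of 0.23 and 0.30. TRIM32, mutated in a limb-girdle muscular dystrophy, was at 16.4 and 18.4 TPM in RD and at 16.1 and 16.0 TPM in JR1, a difference of 0.16 and -0.01. The summed muscle markers were also higher in the depleted library of each line (729 to 1166 TPM and 1111 to 2555 TPM), and their part in these values was not tested. The sum was carried by ACTC1, cardiac actin, at 299.8 and 584 TPM in RD and at 504 and 1741 TPM in JR1. In the same list PAX7, a factor of muscle stem cells, fell in both lines (-1.43 in each), CHRND changed by -0.76 and -0.60, and DES, desmin, by 0.14 and -0.50.

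TRIM36, a microtubule-binding member with a COS domain, was at 0.64 TPM in RD shSCR and 2.65 TPM in RD shSKP2.2, and at 2.44 TPM in JR1 shSCR and 4.03 TPM in JR1 shSKP2.2. It rose in RD, by 1.15, and was higher by 0.55 in JR1, under the fold limit. The other members of its domain class, TRIM9 and TRIM46, changed by -0.14 and 0.13 in RD and by -0.55 and -0.34 in JR1.

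**Figure D3:**
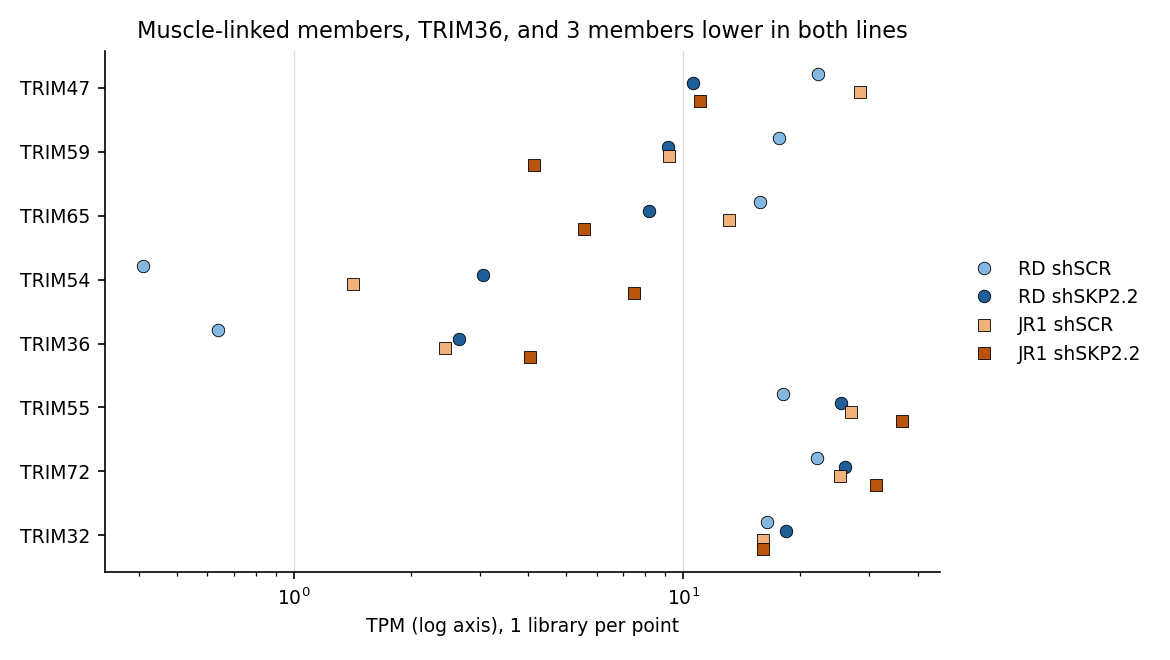
TPM on a log axis of 8 members that are not interferon-induced, 1 point per library (circles RD, squares JR1; pale shSCR, dark shSKP2.2). For TRIM47, TRIM59 and TRIM65 the dark point lies left of the pale point in both lines, and for TRIM54, TRIM36, TRIM55 and TRIM72 it lies right. The widest gap is that of TRIM54, with 0.41 and 3.06 TPM in RD and 1.42 and 7.49 TPM in JR1.

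As deposited, the lowest member in both lines was not interferon-induced, though in JR1 it lay only just below TRIM5 (-1.28), which was the lower of the pair there after rescaling and with 0.1 TPM added. TRIM47, a ligase with a PRY-SPRY domain, was at 22.2 TPM in RD shSCR and 10.6 TPM in RD shSKP2.2, and at 28.4 TPM in JR1 shSCR and 11.0 TPM in JR1 shSKP2.2. Both depleted libraries were below both controls. In RD the change was -1.003, at the fold limit, in JR1 it was -1.29, and rescaling gave -0.65 and -1.05.

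TRIM65, a ligase of the RNA sensor MDA5, lies next to TRIM47 on chromosome 17, at 75880379 to 75897008, with TRIM47 at 75874164 to 75878599 (GRCh38). It was at 15.8 and 8.19 TPM in RD and at 13.1 and 5.56 TPM in JR1, so that its depleted libraries were again both below its controls. It changed by -0.87 in RD and fell by 1.11 in JR1, where rescaling gave -0.91, under the fold limit.

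TRIM59, a membrane-anchored member, was at 17.6 and 9.12 TPM in RD and at 9.18 and 4.15 TPM in JR1, a change of -0.88 and -0.98, so the depleted RD library matched the JR1 control. A read-through row that joins it to IFT80 was at most 1.22 TPM. TRIM23, the member with an ARF GTPase domain, was at 3.11 and 1.85 TPM in RD and at 3.48 and 1.48 TPM in JR1, a change of -0.53 and -0.85. TRIM37, a centrosomal regulator mutated in mulibrey nanism, was at 9.04 and 5.77 TPM in RD and at 8.01 and 5.41 TPM in JR1, a change of -0.57 and -0.49. These 3 members were lower in both lines under every scaling, without reaching the fold limit as deposited.

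TRIM28 (KAP1), the corepressor of KRAB zinc-finger proteins, was the most abundant member and held between 17.9% and 24.6% of the summed TPM of the family. It was at 189.6 and 133.2 TPM in RD and at 110.1 and 91.4 TPM in JR1. The change of -0.51 and -0.27 became -0.11 and 0.02 after rescaling, so in JR1 even its direction depended on the scaling. The 6 listed partners of TRIM28 had medians of -0.19 and 0.07, or 0.20 and 0.35 after rescaling. As deposited, SETDB1, the histone methyltransferase it recruits, was lowest in RD (-0.35, or 0.028 rescaled), CHD3 was lowest in JR1 (-0.15), and ATF7IP was highest in both (0.36 and 0.73).

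Classed with TRIM28 by domain were TRIM24 and TRIM33, coregulators of nuclear receptors and of SMAD signalling. TRIM66, classed by its lack of a RING, is not counted with them here. TRIM24 was at 8.29 and 8.20 TPM in RD and at 4.01 and 5.91 TPM in JR1, a change of -0.01 and 0.46. TRIM33 was at 14.8 and 14.3 TPM in RD and at 12.1 and 12.4 TPM in JR1, a change of -0.04 and 0.03. Both stood above the median change of all genes in both lines.

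Of the other abundant members, TRIM8, a ligase of cytokine and NF-κB signalling, was at 50.2 and 29.3 TPM in RD and at 52.4 and 42.9 TPM in JR1. Its change of -0.76 in RD stood beside -0.28 in JR1, which became 0.0025 after rescaling. TRIM27, a ligase first described as a RET fusion partner, was at 47.9 and 34.2 TPM in RD and at 23.8 and 16.05 TPM in JR1, a change of -0.48 and -0.54. The family as a whole summed to 772 and 593 TPM in RD and to 614 and 502 TPM in JR1. After removal of the short structural RNA genes the sums were 1547 and 1573 TPM in RD and 1431 TPM in both libraries of JR1.

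By domain, each member was put in only 1 class. The PRY-SPRY class leaves out TRIM9, TRIM36 and TRIM46, classed by a COS domain, and the members classed by the lack of a RING. Its 17 tested members had medians of -0.42 in RD and -0.37 in JR1. In RD 1 of them fell and none rose, where 7.37% and 1.08% of all tested genes did. In JR1 3 fell and none rose, beside 9.05% and 1.78%. The highest change in this class was that of TRIM72 in both lines. The 3 members with an NHL domain (TRIM2, TRIM3 and TRIM32) had medians of 0.09 and -0.33. The 4 members known to lack the RING had medians of -0.25 and -0.08, which turned to 0.10 and 0.18 after rescaling, and none of them reached the fold limit. These classes share members with the interferon-induced and the muscle lists.

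**Figure D4:**
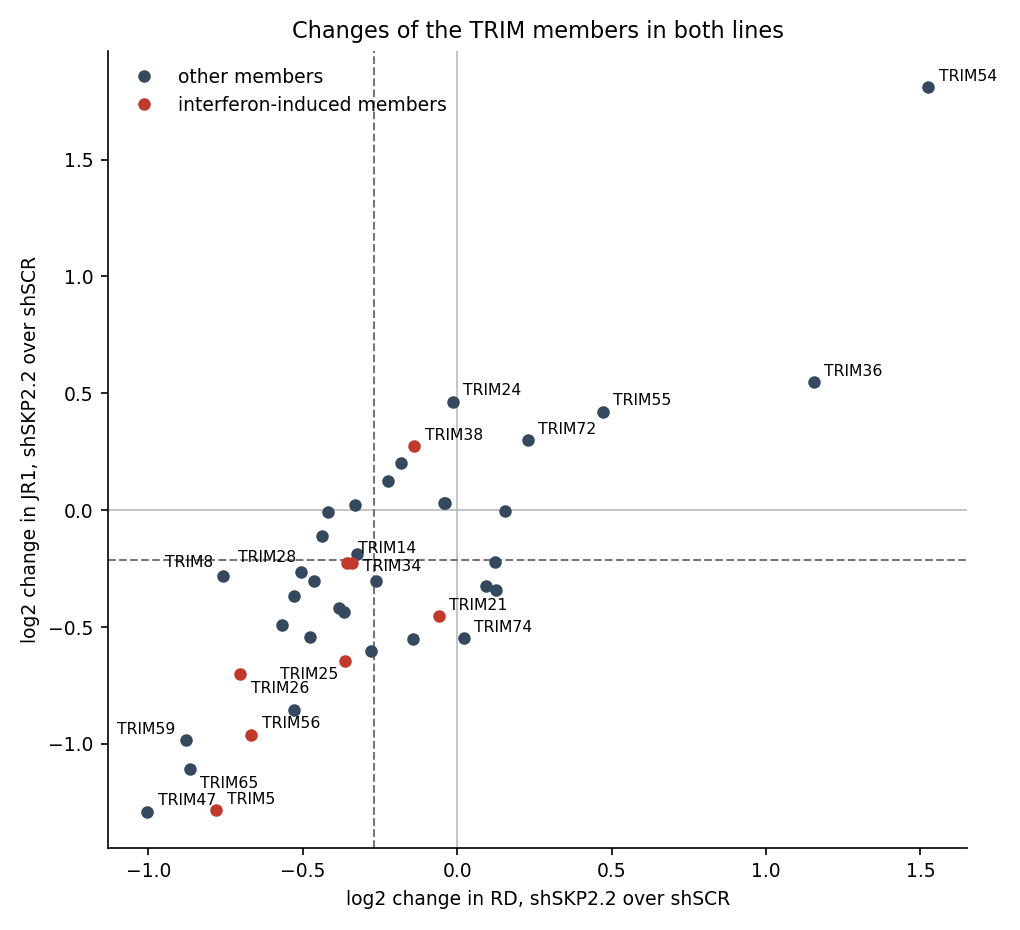
Log2 change of TPM + 1 (shSKP2.2 over shSCR) of the 41 members in RD (horizontal) and JR1 (vertical), red for interferon-induced members. Dashed lines are the medians of all tested genes and grey lines mark 0. TRIM54 and TRIM36 stand apart at the upper right, and TRIM47, TRIM5, TRIM65, TRIM59 and TRIM56 lie at the lower left.

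The changes of the lines ran together across the 41 members, with Pearson's r of 0.83 and Spearman's rho of 0.70. This is a description across genes, which are not independent replicates, and both lines share the hairpin and a higher share of short structural RNA in the depleted library. No member differed by 1 or more between its changes in RD and JR1. As deposited, 12 of the 41 had opposite signs, beside 2765 of the 12985 tested genes.

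The control libraries of RD and JR1 held similar levels of most members. TRIM26 was higher in RD, by 1.499 on the log2 scale of TPM + 1, where 6.5% of all tested genes were higher by at least 1. TRIM36 was higher in JR1, with -1.07 for RD over JR1, where 3.44% were. The other 39 members differed by less than 1, and 22 of the 41 were higher in RD. The median difference was 0.13 for the members and 0.23 for all tested genes. These values are as deposited and were not rescaled. Short structural RNA genes took 50.1% of TPM in the RD control and 57.1% in the JR1 control, which shifts the other genes toward RD.

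**Figure D5:**
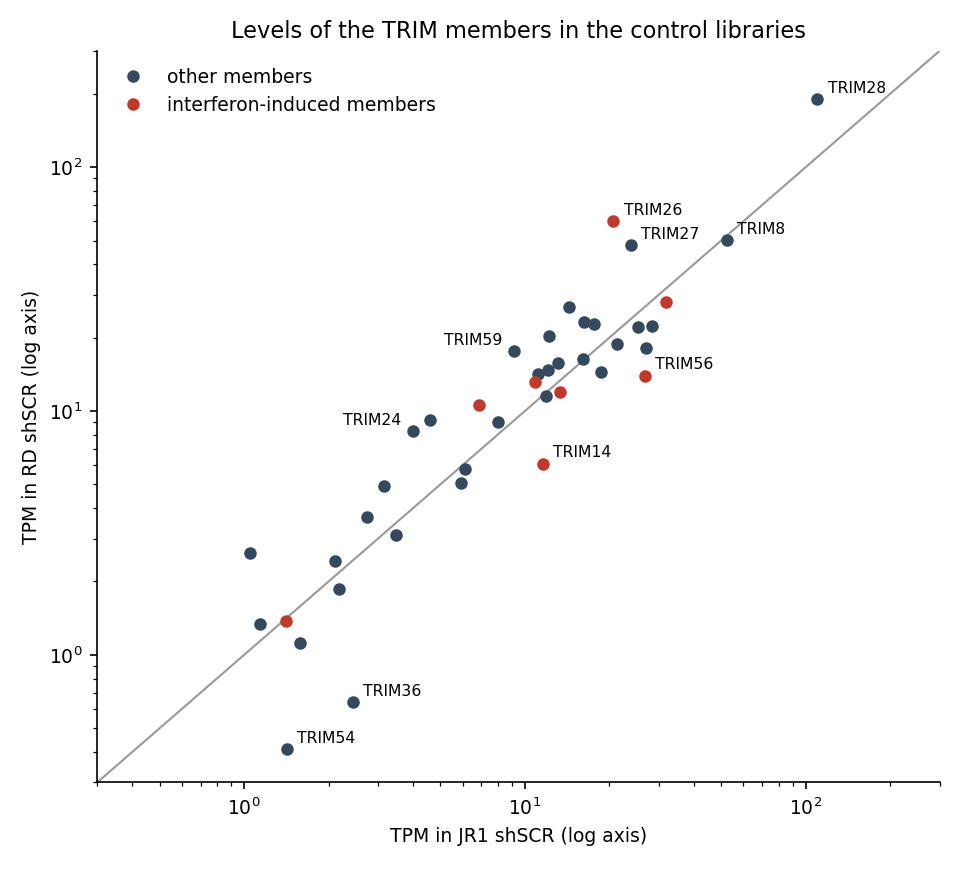
TPM of the 41 members in the shSCR libraries of JR1 (horizontal) and RD (vertical), both axes log, red for interferon-induced members. The line marks equal TPM. TRIM28 is highest in both (110.1 and 189.6 TPM), TRIM26 lies well above the line (20.7 and 60.2 TPM) and TRIM54 and TRIM36 lie below it.

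At the limit on the mean, the members just inside were TRIM66 (mean 1.06 TPM), TRIM9 (1.10 TPM) and TRIM34 (1.18 TPM), and TRIM7 was just outside (0.875 TPM). TRIM66 was at 1.34 and 0.87 TPM in RD and at 1.14 and 0.88 TPM in JR1, and TRIM9 at 1.12 and 0.92 TPM in RD and at 1.58 and 0.76 TPM in JR1. Of the 41 members, 6 were under 1 TPM in at least 1 library (TRIM9, TRIM34, TRIM36, TRIM54, TRIM58 and TRIM66), and their changes depend most on the added 1 TPM. TRIM54 passed the limit only through its depleted libraries, and TRIM9, TRIM34 and TRIM66 only through their controls.

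The 2 interferon-induced genes that missed the limit were TRIM22 and TRIM69. TRIM22, an antiviral neighbour of TRIM5, was at 0.54 and 0.33 TPM in RD and at 1.90 and 0.18 TPM in JR1, so it was above 1 TPM only in the JR1 control. It changed by -0.21 in RD and by -1.30 in JR1, below TRIM5 there. TRIM69 was at 0.16 and 0.36 TPM in RD and at 0.23 and 0.08 TPM in JR1.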

How the data were processed

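The 4 RNA-seq libraries (RD or JR1, shSCR or shSKP2.2, 1 each, grouped by their labels) were analysed. The authors selected poly-A RNA, made directional libraries read as pairs of 150 bases, aligned them to GRCh38 and deposited TPM with 2 decimals. The submitters' processing notes name STAR 2.7.9a and RSEM 1.3.2. The strand setting of the counting is not given in the sources used here, so overlapping genes (TRIM5 with TRIM34, TRIM52 with its antisense gene) and near copies (TRIM16 with TRIM16L, TRIM73 with TRIM74) are uncertain. Changes were log2 of TPM + 1, for genes whose mean TPM reached 1.

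The members and lists were chosen with earlier results of these data known. Named were all interferon-induced members, those past the fold limit, the 5 largest rises and falls, the 5 most abundant, muscle and TIF1 members, and those near 1 TPM. Promoters came from a RefSeq table of GRCh38.p14 and matched 32 of 41 members, and the E-box search was added after the values were seen. The motif searches, domain classes, TRIM46, TRIM3, TRIM74, TRIM2 and the genes under the limit on the mean are named outside this rule. The alternatives were another pseudocount (0.1 TPM), centring, removal of 2572 short structural RNA genes with rescaling, a minimum mean of 5 TPM or none, a 1.5-fold limit and other member lists. A limma test with line as block was added after seeing the data. Scripts, tested on simulated data, used R 4.3.3 with limma 3.58.1 and Python 3.11.15, with matplotlib 3.10.9, scipy 1.17.1, pandas 2.3.3 and numpy 2.4.6.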

Additional observations from a re-analysis of the deposited data

Results flagged for a closer look

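For 3 members the changes in RD and JR1 had opposite signs under every scaling tried. With 1 library per condition this difference was not tested. The same count over all tested genes is not given, so the count of 3 is not a result about the members. As deposited alone, 12 of the 41 members had opposite signs, beside 2765 of the 12985 tested genes. TRIM3, an NHL-domain member, was at 5.8 and 6.25 TPM in RD and at 6.12 and 4.68 TPM in JR1 (shSCR, then shSKP2.2), a change of 0.09 and -0.33, so the changes differed by 0.42. TRIM46, a microtubule-binding member of the axon initial segment, was at 1.86 and 2.12 TPM in RD and at 2.18 and 1.51 TPM in JR1, a difference of 0.47 between changes of 0.13 and -0.34. TRIM74 was at 26.8 and 27.2 TPM in RD and at 14.3 and 9.47 TPM in JR1, a difference of 0.57 between changes of 0.02 and -0.55, and its reads may be split with the near copy TRIM73. All 3 differences were under the fold limit.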

How the results depend on the processing

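With 1 library per line and condition, no library was left out. The medians, differences and counts not named here stayed within 0.1 on the log2 scale or, for counts, within 1.5 times. The paired test over both lines, with the line as replicate block, called 11 lower and 3 higher members as deposited, 5 and 5 after rescaling, and 0 and 0 without the replicate block. As deposited, the interferon-induced median was -0.36 in RD and -0.55 in JR1, that of the other members -0.28 and -0.28, and their difference -0.08 and -0.27. Centring on all genes gave interferon-induced medians of -0.090 and -0.33 and other medians of -0.0086 and -0.067, and no member that fell in RD (0 in place of 1). Removal of short structural RNA genes, with the limit on the mean applied again (9 and 35 members), gave -0.15 and -0.37 against 0.055 and -0.042, a difference of -0.21 in RD, and 0 that fell in RD. Every member above 0 TPM (10 and 44) gave other medians of -0.15 and -0.13 and differences of -0.20 and -0.42. A narrower interferon-induced list (6 and 35 members) gave a median of -0.34 and a difference of -0.036 in JR1, so the gap between the lists in JR1 rested on TRIM26 and TRIM56 being listed. Adding 0.1 TPM gave an interferon-induced median of -0.51 in RD and 6 members that fell in JR1 in place of 3. A limit of 1.5-fold gave 7 that fell in RD and 9 in JR1. With a minimum mean of 5 TPM none rose (0 in RD and 0 in JR1, in place of 2 and 1), since TRIM54 and TRIM36 were left out. The shares of all tested genes under centring, with 0.1 TPM added, at 1.5-fold or at this minimum are not given. The counts under those settings are therefore not a result about the members. Of 150 values of the 25 named members under other settings, 113 moved by over 0.1 and 17 had the other sign, 7 after centring and 10 after removal of short structural RNA genes. TPM keep no counts, so counting error is unknown, and within a line no change has an error.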

Other observations

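Among the symbols under the limit on the mean, TRIM7 was at 0.52 and 0.38 TPM in RD and at 1.10 and 1.5 TPM in JR1 (shSCR, then shSKP2.2). TRIM4 was at 0.47 TPM in the RD control and listed at 0 in the other libraries. Of the TRIM genes known under other symbols, MID1, the microtubule-associated ligase of Opitz syndrome, was at 19.0 and 21.3 TPM in RD and at 16.1 and 12.7 TPM in JR1. CMYA5, a costamere protein of striated muscle, was at 0.57 and 1.23 TPM in RD and at 1.10 and 1.88 TPM in JR1, higher in the depleted library of each line by 0.51 and 0.46. MID2 and MEFV were under a mean of 1 TPM.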
